A study of Homo sapiens with 17 samples.

Results

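FLT1, ESM1 and SEMA3F are 3 genes of blood vessel growth, described here in PC3 cells, an established line of prostate cancer cells. They were followed through 4 knockdowns, made with 2 short hairpin RNAs (shRNAs) against MED25 and 2 against ETV4. The genes were chosen by symbol, with their log2 ratios from the authors' deposited tables already known, and they are 3 of the 1400 genes that at least 1 table lists. Their ratios are therefore described and not tested. ESM1 was lower with MED25 shRNA B and with both ETV4 shRNAs, FLT1 was lower with both ETV4 shRNAs, and SEMA3F was lower with ETV4 shRNA A according to the authors' deposited tables. None of them was listed with MED25 shRNA A.

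The RNA was taken 7 days after infection. MED25 shRNA A and MED25 shRNA B were carried by lentivirus, with 3 libraries each, and the lentiviral control, with 3 libraries, carried a luciferase shRNA. ETV4 shRNA A and ETV4 shRNA B were carried by retrovirus, with 3 libraries each, and the retroviral control, with 2 libraries, carried a control shRNA; the design text of the series names an empty vector as control instead. No label tells whether libraries of a group came from separate cultures, or whether infected cells were sorted or cloned. The tables hold 1 log2 ratio and 1 score per gene and comparison, and no value per library. The spread between replicates therefore cannot be given for any ratio below.

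FLT1 encodes VEGFR1, a receptor tyrosine kinase that binds VEGF-A, VEGF-B and placental growth factor. It also gives rise to soluble forms that hold VEGF-A away from the main signalling receptor, VEGFR2, encoded by KDR. ESM1 encodes endocan, a secreted dermatan sulfate proteoglycan made by the tip cells of growing vessels and used as a marker of VEGF-driven angiogenesis. SEMA3F is a secreted class 3 semaphorin that acts through neuropilin-2, a receptor that VEGF-C also binds, and it repels endothelial cells. MED25 is a subunit of Mediator, the complex that links transcription factors to RNA polymerase II, and its activator-binding domain can be bound by ETV4, an ETS-family factor whose DNA motifs centre on GGAA.

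The 250 bases before the RefSeq start of each gene (GRCh38.p14) are shown because these genes were lower together with ETV4 shRNA A. Capitals mark GGAA or its reverse complement TTCC, the longer ETS form AGGAAGT, the cyclic AMP response element TGACGTCA, and TATAAA.
FLT1, chr13:28495129-28495378, minus strand: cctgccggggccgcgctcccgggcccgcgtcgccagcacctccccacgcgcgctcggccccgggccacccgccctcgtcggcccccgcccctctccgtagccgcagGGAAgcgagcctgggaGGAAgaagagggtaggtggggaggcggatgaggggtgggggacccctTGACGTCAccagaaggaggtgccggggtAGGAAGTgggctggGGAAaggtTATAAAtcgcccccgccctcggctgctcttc
ESM1, chr5:54985594-54985843, minus strand: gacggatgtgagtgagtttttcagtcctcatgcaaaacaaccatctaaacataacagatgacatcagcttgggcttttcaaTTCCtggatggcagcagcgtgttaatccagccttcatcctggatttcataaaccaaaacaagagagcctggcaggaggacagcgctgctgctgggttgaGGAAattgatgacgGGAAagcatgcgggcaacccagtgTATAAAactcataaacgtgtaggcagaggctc
SEMA3F, chr3:50154808-50155057, plus strand, the first of 3 starts: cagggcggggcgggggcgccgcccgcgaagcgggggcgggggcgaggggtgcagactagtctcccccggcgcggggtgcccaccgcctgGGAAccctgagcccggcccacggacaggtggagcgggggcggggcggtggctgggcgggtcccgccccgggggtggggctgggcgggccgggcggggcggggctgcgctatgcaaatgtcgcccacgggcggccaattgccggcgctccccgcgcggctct

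The FLT1 window held 4 GGAA cores, 1 of them within AGGAAGT, whose first base lay 53 bases before the start. The ESM1 window held 3 cores, and the windows of SEMA3F starts 1, 2 and 3 held 1, 2 and 5. A GGAA core was present in 92.7% of all 35116 promoter windows of the RefSeq table, so its presence sets these genes apart from few others. AGGAAGT occurred in 7.01% of all windows and TGACGTCA in 1.65%. In the FLT1 window TGACGTCA began 81 bases before the start. Both of these motifs were added after the sequences had been read, and a match describes letters, not binding.

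TATAAA was shared by FLT1 and ESM1, beginning 31 bases before the start of FLT1 and 32 bases before that of ESM1. It occurred somewhere in 10.7% of all windows and was absent from the 3 SEMA3F windows. Base composition differed among the windows, with 73.2% G and C for FLT1 and 47.6% for ESM1. The windows of SEMA3F starts 1, 2 and 3 had 82.0%, 80.4% and 52.8%, and the median over all windows was 58.0%. Of the 8-base ETS forms searched, CCGGAAGT and ACCGGAAG, which occurred in 3.42% and 1.78% of all windows, were in none of the members' windows. CAGGAAGT, which contains AGGAAGT and occurred in 2.60% of all windows, was in the window of SEMA3F start 3, which lies inside the gene, 87 bases before it. The 30 bases around it, with CAGGAAGT in capitals, are shown since this is the only match to an 8-base ETS form among the members.
SEMA3F, chr3:50158921-50158950, plus strand, before start 3: gttttccctggCAGGAAGTccttctgcctg
Matches of AP-1 (TGAGTCA, whose reverse complement is TGACTCA) and of CACGTG were also absent from all 5 windows, while the first occurred in 4.20% and the second in 6.34% of all windows.

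Every gene in the 4 tables was lower after knockdown. Listed genes reached at least 1.5-fold and a score of just over 20 in each of the authors' deposited tables. The lists held 786 genes for MED25 shRNA A, 374 for MED25 shRNA B, 495 for ETV4 shRNA A and 98 for ETV4 shRNA B. The authors' deposited tables put the targeted transcript MED25 at 51.6% (shRNA A) and 30.5% (shRNA B) of control, and ETV4 at 26.1% (shRNA A) and 15.8% (shRNA B). The sign of these targets helped to set the direction of the ratios. A gene that is absent from a table may have been unchanged, higher, lower by less than the minimum or too weakly expressed, and these cannot be told apart.

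ESM1 was the member listed most often. With MED25 shRNA B, the authors' deposited table put ESM1 (ENSG00000164283, chromosome 5) at −1.78 on the log2 scale, or 29.2% of control. This was the seventh largest of the 374 decreases, slightly beyond that of MED25 itself at −1.71 according to the authors' deposited table. With ETV4 shRNA A, ESM1 was at −0.87, or 54.5% of control, and with ETV4 shRNA B at −1.57, or 33.8% of control according to the authors' deposited tables. It was number 171 of 495 by decrease with ETV4 shRNA A and number 5 of 98 with ETV4 shRNA B. ESM1 thus stood among the leading decreases of both B shRNAs. With ETV4 shRNA A, 34.5% of listed genes were lowered at least as much as ESM1, and the median of that list was −0.79 according to the authors' deposited table.

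ESM1 was absent from the table of MED25 shRNA A, whereas the other 6 of the 7 genes lowered at least as much by MED25 shRNA B were listed there. Of the 20 most lowered genes of MED25 shRNA B, 16 were listed with MED25 shRNA A. Over the whole table of MED25 shRNA B, 153 of 374 genes, or 40.9%, were listed with MED25 shRNA A, so absence there was more common than presence. The genes beside ESM1 by rank in the authors' deposited table of MED25 shRNA B were the inducible chaperone HSPA6 at −1.81 and the potassium channel KCNK15 at −1.74, and both were also listed with MED25 shRNA A. The difference between the MED25 shRNAs for ESM1 was not tested, and its size is not known because ESM1 has no listed ratio with shRNA A. Both MED25 comparisons use the same lentiviral control libraries.

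FLT1 (ENSG00000102755, chromosome 13) was lower with each ETV4 shRNA. The authors' deposited tables put it at −1.15, or 45.1% of control, with ETV4 shRNA A and at −1.29, or 41.0% of control, with ETV4 shRNA B. These values were number 75 of 495 and number 8 of 98 by decrease. In the authors' deposited table of ETV4 shRNA A, its neighbours in rank were DNAH12, an axonemal dynein gene, at −1.16 and PHACTR3, a phosphatase and actin regulator, at −1.15. In the authors' deposited table of ETV4 shRNA B, FLT1 stood between the ankyrin gene ANK2 at −1.50 and the cytokine-signalling inhibitor SOCS2 at −1.21. FLT1 was listed with neither MED25 shRNA.

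SEMA3F (ENSG00000001617, chromosome 3) had the smallest listed decrease of the 3 genes. With ETV4 shRNA A it was at −0.67, or 62.8% of control according to the authors' deposited table. It was number 371 of 495, and 124 genes lay between it and the 1.5-fold minimum of the list. SEMA3F was not listed with ETV4 shRNA B, where the ETV4 transcript was lower, nor with either MED25 shRNA. With its ratio this near the minimum, a slightly smaller decrease would have left it off the list.

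**Figure D1:**
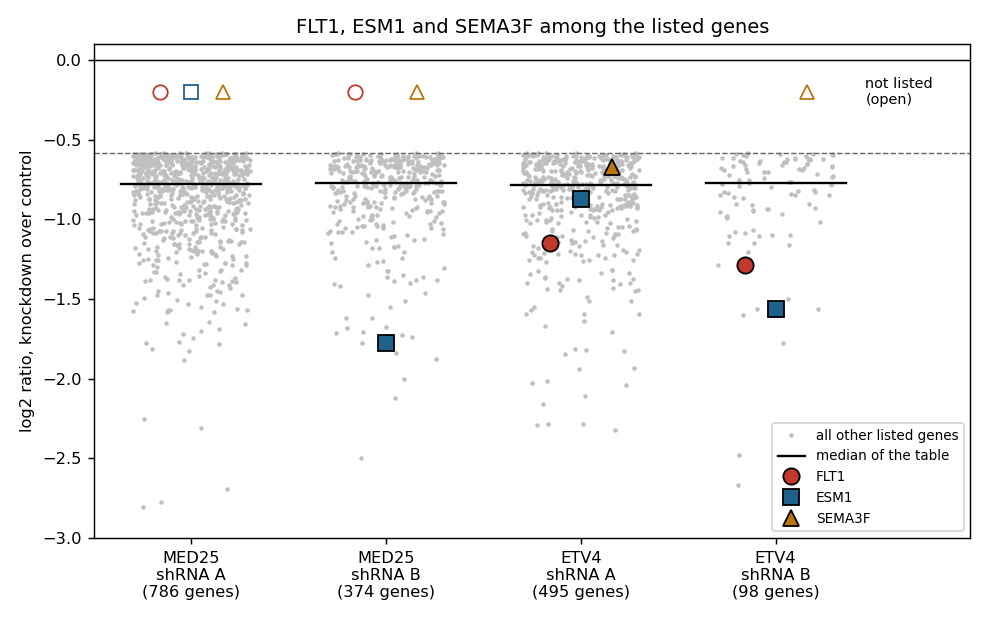
Log2 ratio of knockdown over control (vertical axis) according to the authors' deposited tables of the 4 shRNAs (horizontal axis). Grey points are all other listed genes, black bars the median of each table, the dashed line the 1.5-fold minimum, and open symbols members that a table does not list. ESM1 lies far below the median with MED25 shRNA B (−1.78) and ETV4 shRNA B (−1.57), FLT1 lies at −1.15 and −1.29 with the ETV4 shRNAs, and SEMA3F at −0.67 lies above the median of ETV4 shRNA A.

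Counts of members are read against how many genes each list holds. Listed genes made up 3.44% of the 19951 protein-coding genes of GENCODE release 29 for MED25 shRNA A, where 0 of the 3 members were listed. They made up 1.61% for MED25 shRNA B, with 1 member, 2.17% for ETV4 shRNA A, with 3, and 0.456% for ETV4 shRNA B, with 2. The number of genes the authors tested is not stated by the labels or the tables, and the members were chosen with their listing known, so nothing is drawn from these counts. At least 2-fold lower were ESM1 with MED25 shRNA B, FLT1 with ETV4 shRNA A, and FLT1 and ESM1 with ETV4 shRNA B. Among all listed genes, 24% were at least 2-fold lower with MED25 shRNA A, 20.1% with MED25 shRNA B, 23.2% of those for ETV4 shRNA A and 20.4% of those for ETV4 shRNA B.

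The score per gene, headed as an adjusted p by the authors' deposited tables and of unstated scale, ordered the members differently within a table. In the authors' deposited table of ETV4 shRNA A, FLT1 had a score of 144, SEMA3F of 98.6 and ESM1 of 74.1, where the median of the table was 63.6. SEMA3F, the least lowered of the members here, therefore came before ESM1 by score, at number 154 of 495. In the authors' deposited table of ETV4 shRNA B, ESM1 had a score of 202 and FLT1 of 149, at numbers 13 and 21 of 98. With MED25 shRNA B, ESM1 had a score of 181 according to the authors' deposited table, at number 42 of 374. All 6 scores lay above the medians of their tables.

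**Figure D2:**
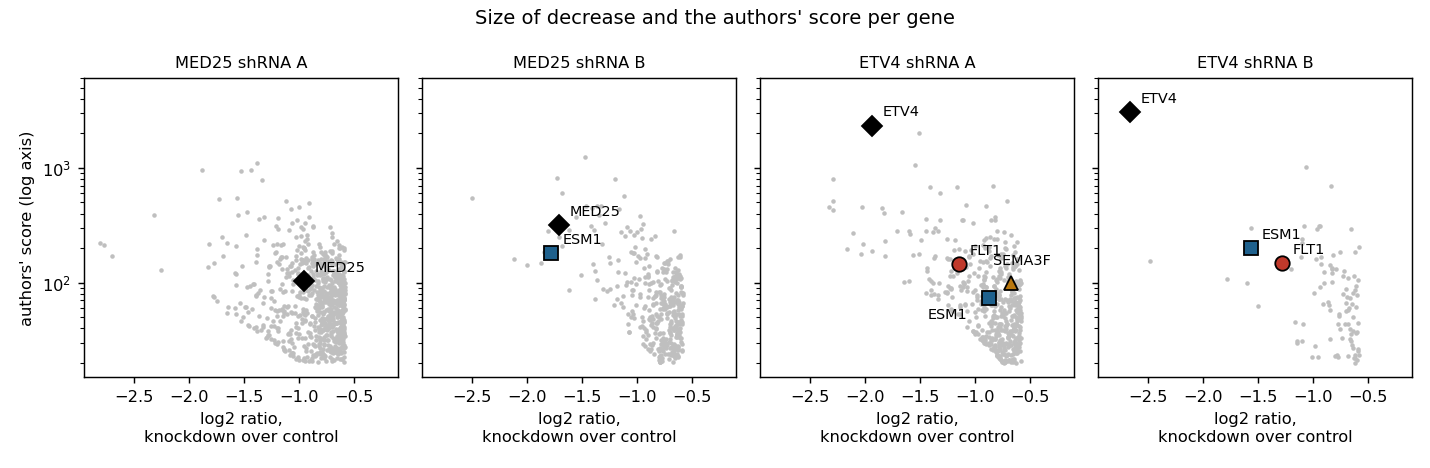
Score of each listed gene according to the authors' deposited tables (vertical axis, log scale, unit not stated) against its log2 ratio of knockdown over control (horizontal axis), 1 panel per shRNA. Grey points are all listed genes, diamonds the targeted gene, and coloured symbols FLT1 (circle), ESM1 (square) and SEMA3F (triangle). SEMA3F has a higher score than ESM1 with ETV4 shRNA A (98.6 and 74.1) although its decrease is smaller.

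Among the genes in both ETV4 tables, ESM1 had nearly the widest gap with the lower value for shRNA B. Its log2 ratio with ETV4 shRNA A minus that with ETV4 shRNA B was 0.69, second among 57 genes to that of ETV4 itself, at 0.73, as computed from the authors' deposited tables. Of the 57 genes, 41 had the lower ratio with shRNA A and 16 the lower one with shRNA B, and the median difference was −0.22. The difference for FLT1 was 0.14, number 11 of 57. ESM1 and FLT1 were thus among the 16 genes, ETV4 itself included, that were lower with shRNA B, by as little as 0.001 for SDC1. Both shRNAs were compared with the same 2 retroviral control libraries, which cancel from this difference on the log scale if both comparisons were scaled alike. It was not tested, since no values per library were analysed, and a gene enters only if it passes the minimum in both tables.

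**Figure D3:**
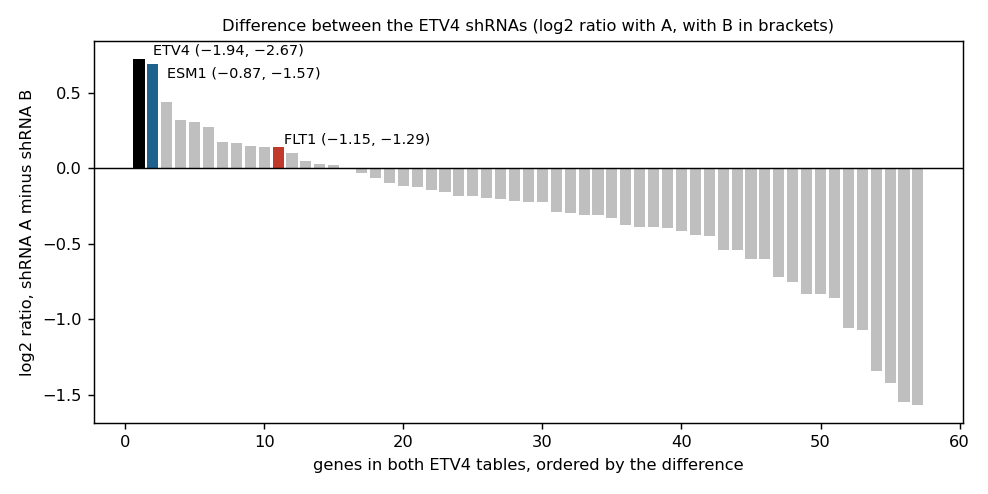
Log2 ratio with ETV4 shRNA A minus that with ETV4 shRNA B (vertical axis) for the 57 genes in both of the authors' deposited ETV4 tables, ordered by the difference (horizontal axis). Bars above 0 are genes lower with shRNA B. ETV4 (0.73) and ESM1 (0.69) stand at the left end, and FLT1 (0.14) is number 11.

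The genes most like FLT1 were sought among the 27 genes listed with both ETV4 shRNAs and no MED25 shRNA, by Euclidean distance of the 2 log2 ratios. Nearest was TFEC, a basic helix-loop-helix factor of the MiT family, at a distance of 0.12, with −1.14 for shRNA A and −1.16 for shRNA B according to the authors' deposited tables. RUNDC3B followed at 0.32, the clone-named RP11-64D22.2 at 0.33, the membrane-repair gene DYSF at 0.39 and FAM110C at 0.40. TFEC and DYSF, like FLT1, had the lower value with shRNA B, and DYSF was at −0.80 for shRNA A and −1.11 for shRNA B according to the authors' deposited tables.

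Few genes had the pattern of ESM1, which was shared by 10 genes, itself included, listed with MED25 shRNA B and both ETV4 shRNAs but not with MED25 shRNA A. Aldehyde oxidase AOX1 was nearest, at a distance of 0.62 over 3 log2 ratios, with −1.47 for MED25 shRNA B, −1.11 for ETV4 shRNA A and −1.08 for ETV4 shRNA B according to the authors' deposited tables. The next were the giant sarcomere gene TTN at 1.12, RP11-887P2.1, an antisense gene of SOCS2, at 1.20, the arginine deiminase PADI1 at 1.22 and the type IV collagen gene COL4A6 at 1.32. In the authors' deposited tables each of these 5 genes was lowered less than ESM1 by MED25 shRNA B and by ETV4 shRNA B, and more than ESM1 by ETV4 shRNA A. With SEMA3F, 334 genes shared the pattern of a listing with ETV4 shRNA A alone. Beside SEMA3F in rank were MIPOL1, the peptidase gene MME, KDELC1 and the guanylate-binding gene GBP2, each at −0.67 in the authors' deposited table of ETV4 shRNA A. The scores of these 4 genes were 68.9, 28.5, 63.5 and 37.9 in the authors' deposited table, all below the 98.6 of SEMA3F.

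Around these members, 9 lists of the wider pathway held 127 genes, of which 19 were in at least 1 table, the 3 members included. MED25 shRNA A had 9 of them, MED25 shRNA B had 7, ETV4 shRNA A had 9 and ETV4 shRNA B had 3. Without the members, whose listing was known when they were chosen, the counts were 9, 6, 6 and 1 of 124 genes. These are 7.26%, 4.84%, 4.84% and 0.806%, against the 3.44%, 1.61%, 2.17% and 0.456% of all protein-coding genes given above. Over the 4 tables together, 16 of the 124 genes were listed, or 12.9%, against 6.14% of all protein-coding genes. The lists were drawn up with earlier results known, so the shares are a description. Of the 1400 listed genes, 1105, or 78.9%, were in 1 table alone, so a gene that is in 1 table and not in the others is the common case.

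Of 5 VEGF ligands, 2 were listed, both with MED25 shRNA A alone, whose list held 3.44% of all protein-coding genes. Placental growth factor (PGF), a ligand of the FLT1 product, was at −1.07 and the lymphangiogenic ligand VEGFC at −0.60 according to the authors' deposited table. VEGFA, the main ligand, was in no table. Of 5 receptors and co-receptors, 3 were in at least 1 table, the member FLT1 included, against 6.14% of all protein-coding genes. FLT1 and KDR were listed with ETV4 shRNA A, KDR at −0.90 according to the authors' deposited table. NRP2, the co-receptor that binds SEMA3F, was listed with MED25 shRNA B at −0.96 according to the authors' deposited table. FLT4 and NRP1 were in no table. In the authors' deposited tables, PGF, VEGFC, KDR and NRP2 had scores of 38.8, 48.5, 34.0 and 42.3. These lay below the median scores of 67.6 for MED25 shRNA A, 63.6 for ETV4 shRNA A and 63.4 for MED25 shRNA B.

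Class 3 semaphorins were listed with ETV4 shRNA A alone, 3 of 7 with SEMA3F included, against 2.17% of all protein-coding genes. A listing with ETV4 shRNA A alone was shared by 334 of the 495 genes in that list. Beside SEMA3F, SEMA3C was at −0.90 and SEMA3D at −0.60 according to the authors' deposited table, so SEMA3F lay between them. SEMA3C can act through both neuropilins, and SEMA3D is known from zebrafish axon and vessel guidance. SEMA3B, which lies near SEMA3F on chromosome 3, was in no table, and neither was any of 9 plexins, the signalling partners of neuropilins. The median of the 3 semaphorins was −0.67, and that of all genes in this table of the authors' deposited data −0.79.

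Among tip cell genes, 5 of 20 were in at least 1 table, against 6.14% of all protein-coding genes, namely the member ESM1 and DLL4, KDR, PDGFB and LAMA4. ESM1 and the Notch ligand DLL4 were listed together with MED25 shRNA B, DLL4 at −1.08 there and at −1.43 with MED25 shRNA A according to the authors' deposited tables. DLL4 was in neither ETV4 table. PDGFB, which recruits pericytes, was at −0.75 and the laminin gene LAMA4 at −0.61 with MED25 shRNA A according to the authors' deposited table.

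Proteoglycan genes, the class to which the ESM1 product belongs, had 4 of 29 genes in the tables, ESM1 included, against the same 6.14%. Syndecan-1 (SDC1) was at −1.88 and −1.73 with MED25 shRNA A and B and at −0.84 with each ETV4 shRNA according to the authors' deposited tables. The heparan sulfate 6-O-endosulfatase SULF2 was at −1.03 and −0.67 with MED25 shRNA A and B, and the sulfotransferase HS3ST1 at −0.77 with MED25 shRNA B according to the authors' deposited tables. The 2 ETV4 values of SDC1 were thus closer together than those of ESM1, given above as −0.87 for shRNA A and −1.57 for shRNA B from the authors' deposited tables.

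Other growth factors and receptors had 3 of 29 genes in the tables, all with MED25 shRNAs, against 6.14% of all protein-coding genes. The chemokine CXCL8 was at −0.83 (shRNA A) and −1.17 (shRNA B), and the receptor PDGFRA at −0.62 with shRNA A according to the authors' deposited tables. Of 20 inhibitors of angiogenesis, SPRY4 at −1.08 and SPRY1 at −0.67 were listed with ETV4 shRNA A according to the authors' deposited table. Both are feedback inhibitors of receptor tyrosine kinase signalling. None of 16 hypoxia-response genes was in any table. These small counts were not tested against the 6.14%, and nothing is drawn from them.

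**Figure D4:**
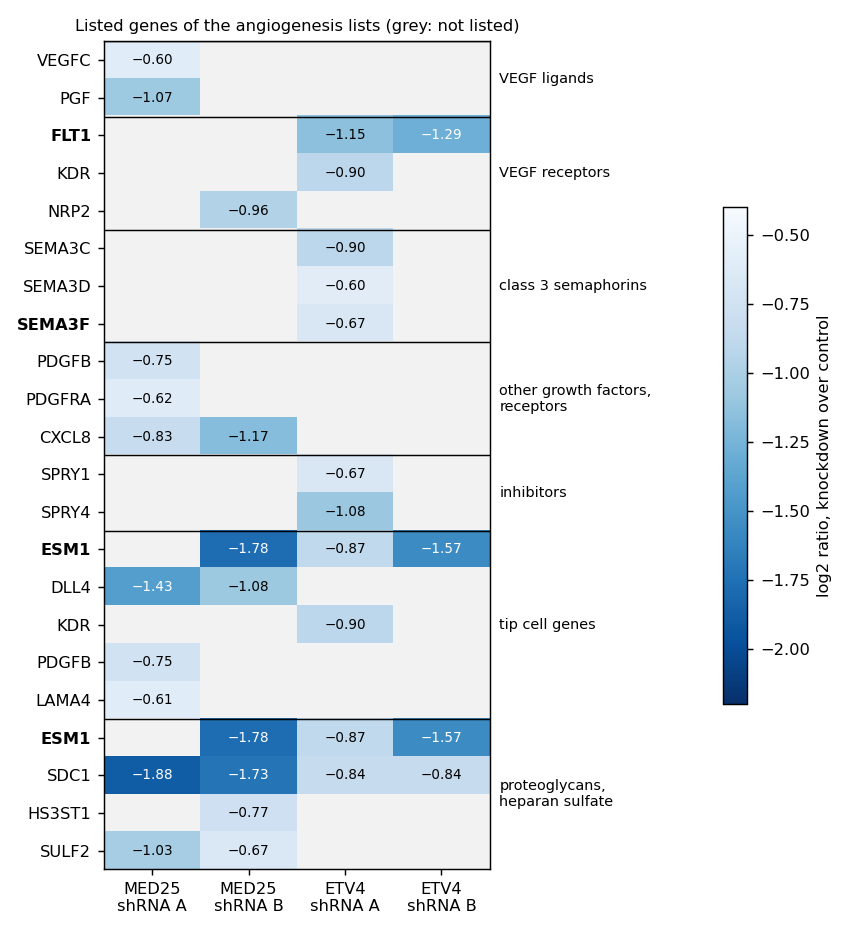
Log2 ratio of knockdown over control according to the authors' deposited tables for each listed gene of the angiogenesis lists (rows, grouped by list, members in bold) and each shRNA (columns). Grey cells are genes that a table does not list, and a gene in more than 1 list has a row in each. KDR and the semaphorins have values in the ETV4 shRNA A column alone, PGF, VEGFC and PDGFB in the MED25 shRNA A column alone, and DLL4 in both MED25 columns.

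FLT1 and ESM1 are best known from endothelium, so markers of other cell types were looked up as well. Of 10 endothelial markers, KDR was listed with ETV4 shRNA A, and ROBO4 with both MED25 shRNAs, at −0.68 and −1.38 according to the authors' deposited tables. PECAM1, CDH5, VWF, TEK and TIE1 were in no table. Of 7 epithelial markers KRT19 was listed, at −0.61 with MED25 shRNA B according to the authors' deposited table. Of 5 fibroblast markers COL3A1 was listed, at −0.73 with ETV4 shRNA A according to the authors' deposited table, and of 4 myeloid markers none was. Over all protein-coding genes, 6.14% were in at least 1 table. The tables give ratios and no levels, so how strongly PC3 cells expressed the members could not be checked, and the part of ROBO4 and KDR in the results was not tested. In bulk RNA, fewer cells of a kind and less RNA per cell cannot be told apart.

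At their loci, none of the genes that overlap or flank the members was in any table. FLT1 overlapped no other gene of GENCODE release 29, and its neighbours PAN3 and POMP were not listed. ESM1 overlapped the transcript AC034238.1 on its own strand, and an exon of another annotated ESM1 transcript spans the promoter window shown above. SEMA3F overlapped the antisense gene SEMA3F-AS1 on the opposite strand and MIR566. Whether reads were counted by strand is not stated by the labels or the tables, so reads of SEMA3F and SEMA3F-AS1 may not have been told apart and the SEMA3F value is uncertain in this respect. FLT1 has 9 annotated coding transcripts, and a ratio per gene does not separate its membrane-bound from its soluble forms.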

How the data were processed

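RNA of PC3 cells was sequenced, and the submitters' processing notes name the aligner Novoalign 3.08.02 and the genome build hg19. How reads were counted, with or without strand, on which annotation, how libraries were scaled and which test was run is not recorded in the labels or headers. Depth is unknown. The authors deposited 1 table per shRNA with a log2 ratio per gene, per the file headers. The second column, headed as an adjusted p, was used as a score, since the authors do not state its scale, per the file headers, and its values exceed 1. It served for ranking within a table.

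Both tables of each target share a library number in their headers, taken here as the control's. It stands second for ETV4 and first for MED25, so MED25 ratios were turned round to knockdown over control.

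The members and gene lists were chosen with earlier results of these data known. Named are the members, the targets, listed genes of the lists and of the marker sets, the 5 nearest genes of each member, and neighbours in rank. Genes were matched to GENCODE release 29 by identifier (1350 of 1400). Promoters are from RefSeq, GRCh38.p14, 300 bases from 250 before to 50 after the start, of which the 250 before the start were searched on both strands. All 3 members matched, with 5 starts. Protein sequences were not used here. No test was run, as no values per library were analysed. Ranking and distance code was tested on made-up tables. Calculations were made in Python 3.11.15 (numpy 2.4.6, pandas 2.3.3, scipy 1.17.1), and figures were drawn by matplotlib 3.10.9.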

Additional observations from a re-analysis of the deposited data

How the results depend on the processing

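No paired analysis was possible because the tables hold no value per library, and for the same reason no library could be left out. Log2 ratios do not depend on the settings tried, while the place of a member in its list does. The share of listed genes lowered at least as much was 15.2% and 8.16% for FLT1 with ETV4 shRNA A and B, 1.87%, 34.5% and 5.10% for ESM1 with MED25 shRNA B, ETV4 shRNA A and ETV4 shRNA B, and 74.9% for SEMA3F. Among protein-coding genes, which made up most of each list, the shares in the same order were 14.8% and 6.59% for FLT1. They were 2.17%, 33.3% and 4.40% for ESM1 and 73.6% for SEMA3F. With a score of at least 50, which leaves fewer genes, the share was 25.0% and 13.1% for FLT1 with ETV4 shRNA A and B. It was 3.04%, 49.3% and 8.20% for ESM1 with MED25 shRNA B, ETV4 shRNA A and ETV4 shRNA B, and 79.3% for SEMA3F. Among genes lowered at least 2-fold, a shorter list by construction, it was 65.2% and 40.0% for FLT1 with ETV4 shRNA A and B, and 9.33% and 25.0% for ESM1 with MED25 shRNA B and ETV4 shRNA B. Ranked by score, the shares were 19.6% and 21.4% for FLT1, 11.2%, 43.0% and 13.3% for ESM1 and 31.1% for SEMA3F.

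Pathway genes, members included, were counted again in the order MED25 shRNA A, MED25 shRNA B, ETV4 shRNA A and ETV4 shRNA B. With a score of at least 50 they numbered 5, 4, 8 and 3 of 127. That score left 230 of 374, 300 of 495 and 61 of 98 listed genes for the last 3 shRNAs. At least 2-fold lower were 4, 4, 2 and 2 pathway genes. Among all listed genes, 24%, 20.1%, 23.2% and 20.4% were lowered that much. Nothing is drawn from these small counts. Among genes listed in at least the same tables, 2 of the 5 nearest genes of FLT1 and 1 of 5 of ESM1 were kept. By largest absolute difference 5 and 3 were kept. No depth is known, so its limit on weakly expressed genes could not be given.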

Other observations

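Guidance genes outside the class 3 semaphorins were also in the tables, and those named here were chosen after their values were seen. In the authors' deposited tables, the class 6 semaphorin SEMA6B was at −0.66 and −1.15 with MED25 shRNA A and B, and the class 4 semaphorin SEMA4B at −0.63 with MED25 shRNA B. Neither was in an ETV4 table. The netrin G gene NTNG1 was at −0.95, −0.83 and −1.27 with MED25 shRNA A, MED25 shRNA B and ETV4 shRNA A, and the netrin receptor UNC5C at −0.91 with ETV4 shRNA A according to the authors' deposited tables.

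Ephrin-B1 (EFNB1), a membrane-bound ligand of Eph receptors, was at −1.03 and −1.42 with MED25 shRNA A and B according to the authors' deposited tables. The Eph receptors named here were each in 1 table, as were 78.9% of all 1400 listed genes. EPHA2 was at −0.88 and EPHA7 at −0.81 with MED25 shRNA A, and EPHB2 at −0.66 with MED25 shRNA B according to the authors' deposited tables. EPHA1 was at −0.73 with ETV4 shRNA A and EPHA5 at −0.60 with ETV4 shRNA B according to the authors' deposited tables. The carbohydrate sulfotransferase CHST2, also chosen after its values were seen, was at −1.07 with MED25 shRNA A according to the authors' deposited table. With ETV4 shRNA A and B it was at −0.63 and −0.95 according to the authors' deposited tables. Like ESM1, it was among the 16 of 57 genes in both ETV4 tables with the lower value for shRNA B, while 41 had the lower value for shRNA A.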
